A study of Bos indicus x Bos taurus with 17 samples.

Results

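ANKRD1, ANKRD2, ANKRD23 and CSRP3 encode 4 sarcomere proteins that are linked to titin and to mechanical load, and they are 4 of the 21048 genes listed in the count tables of fetal skeletal muscle and liver. They were chosen by gene symbol, and the set was built around ANKRD1 because its count was low in ART-Normal muscle. The muscle comparison of the conception groups was therefore part of the choice, and for these 4 genes it is given as a description without a p-value. The fetuses were F1 crosses of Bos indicus (Nelore) and Bos taurus (Holstein) at about day 105, all labelled healthy. Control-AI 2 and 4 were conceived by artificial insemination, and ART-Normal 1, 2, 3 and 4 were produced in vitro. The paper describes its ART-Normal fetuses as similar to the controls in weight. Conception by artificial insemination and production in vitro differ in many steps, which these groups do not separate. ART-Normal 4 is in the sample labels but not among the 3 ART-Normal fetuses that the paper lists, so its weight is not given there. Each fetus gave 1 muscle and 1 liver library, so 12 libraries were used.

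Titin is the giant elastic protein that runs from the Z-disc to the middle of the sarcomere. ANKRD1, ANKRD2 and ANKRD23 form the muscle ankyrin repeat protein family, whose members bind the spring-like part of titin and the Z-disc protein myopalladin and can also enter the nucleus. ANKRD1, also called CARP, is abundant in the heart and in stretched, injured or developing skeletal muscle. ANKRD2 is known from slow and stretched skeletal muscle, and ANKRD23 is also called DARP. CSRP3, or muscle LIM protein, is a LIM-domain protein of the Z-disc that binds alpha-actinin and telethonin and takes part in myogenic differentiation.

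On ARS-UCD1.2, ANKRD1 (gene identifier 510376) spans 12533108 to 12542479 on the minus strand of chromosome 26. ANKRD2 (100847218) spans 18762356 to 18771322 on the plus strand of the same chromosome. ANKRD23 (100296784) spans 2799810 to 2806002 on the minus strand of chromosome 11, and CSRP3 (540407) spans 25744235 to 25764912 on the plus strand of chromosome 29. Reads were counted over these whole gene spans of 9372, 8967, 6193 and 20678 bp, which include introns. None of the 4 spans overlaps another listed gene on either strand, so reads of a partner on the opposite strand do not enter these counts.

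Total counts ranged from 12433300 to 23578362 in muscle and from 18454088 to 43339598 in liver. Control-AI 2 stood apart from the other 5 libraries on the first principal component in both tissues, at -46.3 in muscle and -46.5 in liver, where all others were above 0. Its muscle library also held the highest sum of hepatocyte markers, 380 CPM (counts scaled to the library total) compared with 57.6 CPM in the other control and 26.8 to 65.7 CPM across ART-Normal. Of 11 skeletal muscle markers, 10 were in the tables and none was at 0 in muscle, where their sum was 15813 and 14374 CPM in the controls and 10668 to 16134 CPM in ART-Normal. In liver the same sum was 7.77 to 26.0 CPM, with MYOD1 at 0. Among the 7 cardiac markers in muscle, NPPB was at 0 and NPPA and NKX2-5 stayed under 1 CPM in every library. The 7 together still summed to 363 and 357 CPM in the controls and 328 to 513 CPM in ART-Normal. TNNT2 had 142 to 199 CPM and MYL7 159 to 299 CPM over the muscle libraries. In whole tissue, fewer cells that express a gene and less RNA of that gene per cell cannot be told apart.

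ANKRD1 was lower in every ART-Normal muscle than in either control muscle. Its counts were 254 and 483 in Control-AI 2 and 4, and 127, 79, 92 and 103 in ART-Normal 1, 2, 3 and 4. After TMM normalization within muscle these counts were 19.6 and 20.8 CPM in the controls and 5.41, 4.71, 4.16 and 5.32 CPM in ART-Normal. The controls differed from each other by 1.06-fold and the ART-Normal libraries by at most 1.30-fold, and a wide gap separated the groups. Relative to the controls, ART-Normal muscle had a log2 fold change of -2.05 (SE 0.19), a 4.16-fold lower level. The lowest of these counts, 79, had a 95% Poisson interval of 62.5 to 98.5, which covers counting error only. ANKRD1 met the filter of 5 CPM in all libraries of a group through the controls alone. The quasi-likelihood test of edgeR called 1 of 11695 genes in muscle in either direction, 0.00855% of those tested, and that gene was ANKRD1. Since this contrast chose the gene, nothing is read from the call.

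ANKRD2 was also lower in all ART-Normal muscles, with a wider spread. The control muscles, in the order 2 and 4, held 31.2 and 45.5 CPM. ART-Normal 1, 2, 3 and 4 had 11.2, 13.0, 23.3 and 21.6 CPM. The ART-Normal libraries fell into a lower and a higher pair, and the highest of them stayed under both controls. The log2 fold change was -1.16 (SE 0.29), or 2.23-fold lower. Its coefficient of variation among the 4 ART-Normal muscles was 35.2%, against 11.9% for ANKRD1, 16.2% for ANKRD23 and 15.0% for CSRP3.

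ANKRD23, the third ankyrin repeat gene, overlapped between the groups in muscle. It had 14.2 and 7.71 CPM in Control-AI 2 and 4, and 9.12, 6.08, 7.87 and 7.85 CPM in ART-Normal 1, 2, 3 and 4. Control-AI 2 was far above the rest, while Control-AI 4 lay within the range of ART-Normal. The log2 fold change was -0.50 (SE 0.28), and without Control-AI 2 it was 0.008.

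CSRP3, the LIM-domain member, had similar levels in both groups of muscle. The controls had 274 and 357 CPM, and ART-Normal 1, 2, 3 and 4 had 280, 306, 221 and 314 CPM. Control-AI 2 lay inside the ART-Normal range and Control-AI 4 above it. The log2 fold change was -0.18 (SE 0.17), and without Control-AI 4 it was 0.004.

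**Figure D1:**
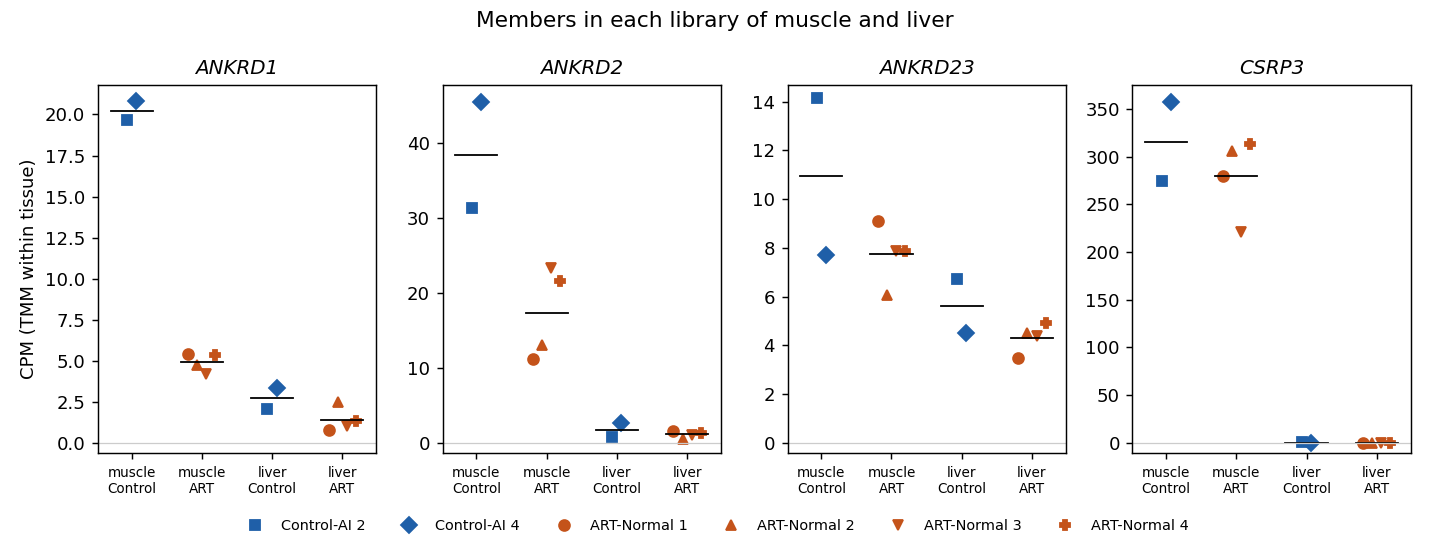
CPM after TMM normalization within each tissue (y axis, linear, a separate scale per gene) for the 4 genes in muscle and liver of Control-AI and ART-Normal fetuses; each symbol is 1 library and the line is the group mean. ANKRD1 in muscle was 19.6 and 20.8 CPM in the controls against 4.16 to 5.41 CPM in ART-Normal, whereas ANKRD23 and CSRP3 overlapped between the groups in both tissues.

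In this contrast, 2 of the 4 members, ANKRD1 and ANKRD2, were below both controls in all ART-Normal muscles. Over all tested genes the share below both controls was 6.39%, and the share above both was 9.26%. When only Control-AI 4 served as the control, 3 of 4 members lay below it, CSRP3 being added, and so did 20.4% of all tested genes. When only Control-AI 2 served, 3 of 4 members also lay below it, with ANKRD23 added in place of CSRP3. The share of all genes below Control-AI 2 alone was not computed. Ranked from the lowest log2 fold change among 11695 genes, ANKRD1 was at position 22, ANKRD2 at 69, ANKRD23 at 332 and CSRP3 at 2111. The choice of members used this contrast, so the counts and ranks describe the set and are not evidence about it.

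**Figure D2:**
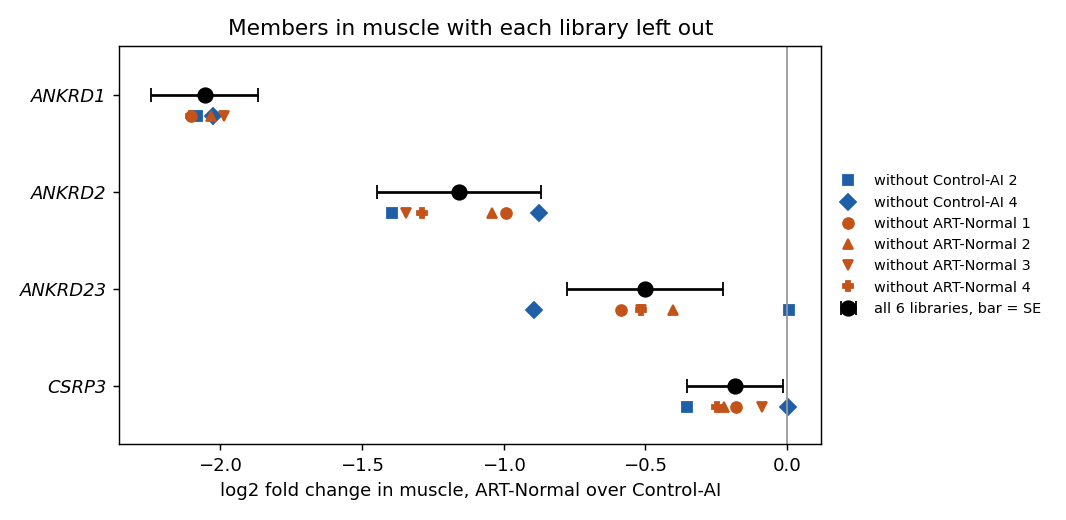
Log2 fold change in muscle with Control-AI as the reference (x axis) for each member from all 6 libraries (black, bar = SE) and with each library left out in turn (coloured symbols). ANKRD1 stayed between -2.10 and -1.99 and ANKRD2 between -1.39 and -0.88, while ANKRD23 without Control-AI 2 and CSRP3 without Control-AI 4 came to 0.008 and 0.004.

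Ratios of counts within a library do not depend on the scaling between libraries, and here each ratio is compared across libraries only. The ratio of CSRP3 to ANKRD1 counts was 14.0 and 17.2 in the control muscles, compared with 51.7, 65.0, 53.1 and 58.9 for ART-Normal 1, 2, 3 and 4. The ratio was higher in all ART-Normal libraries, with no overlap between groups. Its denominator is the ANKRD1 count whose low level in ART-Normal muscle built the set. This gap therefore restates the choice and is a description only. The ratio of ANKRD2 to ANKRD1 counts was 1.59 and 2.19 for the controls, compared with 2.06, 2.76, 5.60 and 4.06 for ART-Normal, and ART-Normal 1 fell between the controls.

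The members did not share 1 order of libraries. Over the 6 muscle libraries, the log2 CPM of ANKRD1 and ANKRD2 had a Pearson correlation of 0.78 (Spearman 0.49), which was -0.47 among the 4 ART-Normal libraries alone. For ANKRD1 and CSRP3 the values were 0.47 (Spearman 0.49) over all 6 libraries and 0.75 within ART-Normal. ANKRD23 and CSRP3 had -0.24 (Spearman -0.66), and -0.30 within ART-Normal. These few points share libraries and depth, and the correlations are descriptions only.

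The genes next to the members on the chromosome were looked up after the data were examined. The members were chosen with this contrast and their neighbours were not, so their values are listed without a comparison. RPP30, the nearest tested gene on one side of ANKRD1, lies 12003 bp away and had a log2 fold change of -0.04 (SE 0.16) in muscle, and PCGF5 on the other side had 0.24 (SE 0.16). HOGA1 lies 373 bp and UBTD1 1702 bp from ANKRD2, and their log2 fold changes were -0.04 (SE 0.18) and 0.47 (SE 0.25). For ANKRD23 the neighbours CNNM3 and ANKRD39 had 0.15 and -0.09, and for CSRP3 the neighbours E2F8 and ZDHHC13 had -0.10 and 0.09. None of these 8 genes passed the test, with edgeR adjusted p-values of 0.605 to 0.966. Of all 11695 genes tested in muscle, 1 passed (0.00855%).

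In liver all 4 genes were listed at low counts, and none met the filter of 5 CPM in all libraries of a group. ANKRD1 had 31 and 82 counts in Control-AI 2 and 4, and 18, 116, 26 and 41 counts in ART-Normal 1, 2, 3 and 4. These were 2.08 and 3.36 CPM in the controls and 0.794, 2.46, 1.00 and 1.31 CPM in ART-Normal. Control-AI 4 was the highest, but ART-Normal 2 lay between the controls, so the groups overlapped.

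ANKRD2 in liver had 0.807 and 2.62 CPM in the controls and 1.63, 0.488, 1.00 and 1.31 CPM in ART-Normal. The lower control lay inside the ART-Normal range. ANKRD23 in liver had 6.72 and 4.50 CPM in the controls and 3.49, 4.52, 4.37 and 4.90 CPM in ART-Normal. Control-AI 2 held the highest ANKRD23 level of the 6 fetuses in liver as it did in muscle. Its liver level was raised by a TMM factor of 0.806, against 1.01 to 1.09 in the other livers.

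CSRP3 in liver had 5 counts in Control-AI 2, 3 counts in ART-Normal 3 and 0 in the other 4 libraries. A count of 0 allows up to 3 counts, so a lower level in liver was not detectable at this depth. ANKRD1, ANKRD2 and ANKRD23 overlapped between the groups in liver, and no library could lie below Control-AI 4 for CSRP3. All ART-Normal libraries lay below both controls for 8.68% of the genes tested in liver, which, unlike these 4, had passed the filter.

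The log2 ratios of the liver group means, ART-Normal over Control-AI, were -0.97 for ANKRD1, -0.63 for ANKRD2 and -0.38 for ANKRD23. Without Control-AI 4 that of ANKRD2 was 0.46, and without Control-AI 2 that of ANKRD23 was -0.058. With library size alone that of ANKRD23 was -0.15. Hepatocyte markers moved between the same libraries, with sums of 317107 CPM in Control-AI 2, 55356 CPM in the other control and 30923 to 48687 CPM across ART-Normal. Of these 8 markers, 4 were below both controls in all ART-Normal livers and none was at 0, and their part in the liver levels of the members was not tested. When the filter was dropped, edgeR gave ANKRD1 a log2 fold change of -0.95 (SE 0.50) with an adjusted p of 0.618. The same fit gave ANKRD2 -0.66 (SE 0.62) with an adjusted p of 0.753, and ANKRD23 -0.37 (SE 0.30) with an adjusted p of 0.724. These 3 differences did not pass the test at this depth. With the filter, the quasi-likelihood test called 0 of 11304 genes in liver (0%), while 948 genes had an unadjusted p under 0.05, the likelihood ratio test of edgeR called 89 and DESeq2 called 56.

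All 4 genes were higher in muscle than in liver of the same fetus in 6 of 6 fetuses. They were chosen as sarcomere genes, so this direction was largely set by the choice. Over all 12449 genes that passed the filter, the quasi-likelihood test of edgeR called 42.6% higher in muscle. For ANKRD1, the CPM ratio of muscle over liver, on a scale set jointly for both tissues, was 8.48 and 5.62 for Control-AI 2 and 4, compared with 6.17, 1.71, 3.85 and 3.72 for ART-Normal 1, 2, 3 and 4. ART-Normal 2, the fetus with the highest ANKRD1 count in liver, had the lowest ratio. The mean within-fetus log2 difference was 2.11 ± 0.79 (SD, n = 6 fetuses), with an exact paired permutation p of 0.03125 (two-sided), the smallest that 6 pairs allow. This p was the same for each of the 4 genes, and it stayed at 0.03125 after Benjamini-Hochberg adjustment over them.

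ANKRD2 was 34.9-fold and 15.7-fold higher in muscle in Control-AI 2 and 4, and 6.20, 23.8, 21.6 and 15.1-fold higher in ART-Normal 1, 2, 3 and 4. The 5 CPM filter admits ANKRD2, ANKRD23 and CSRP3 to the fit of both tissues through their muscle level alone and leaves ANKRD1 out. The p-values given here therefore come from the fit without that filter, which called 13518 of 18749 genes in either direction. There ANKRD2 had a log2 fold change of muscle over liver of 4.05 (SE 0.27), with an edgeR adjusted p of 1.203e-07, and ANKRD1 had 2.12 (SE 0.29), with 4.701e-05. ART-Normal 1 had the lowest ratio, having the lowest muscle and the highest liver CPM of the 4 ART-Normal fetuses.

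ANKRD23 differed least between the tissues. Its ratio was 1.89 and 1.55 for the controls, compared with 2.37, 1.203, 1.68 and 1.47 for ART-Normal 1, 2, 3 and 4. The log2 fold change of ANKRD23 without the filter was 0.73 (SE 0.16), with an edgeR adjusted p of 0.0021. Ordered by level, control muscle, ART-Normal muscle, control liver and ART-Normal liver each overlapped the next.

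CSRP3 was close to absent from liver, with 34501 counts summed over the muscle libraries against 8 over the liver libraries. The ratio of CPM was 5926, with a 95% counting interval of 3007 to 13728. Of the 8 liver counts, 5 were from Control-AI 2, and without that library the ratio was 14045 (95% counting interval 4805 to 68109). The edgeR adjusted p of CSRP3 without the filter was 1.786e-10, while its fitted fold change rests on the prior count because 4 liver libraries were at 0.

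**Figure D3:**
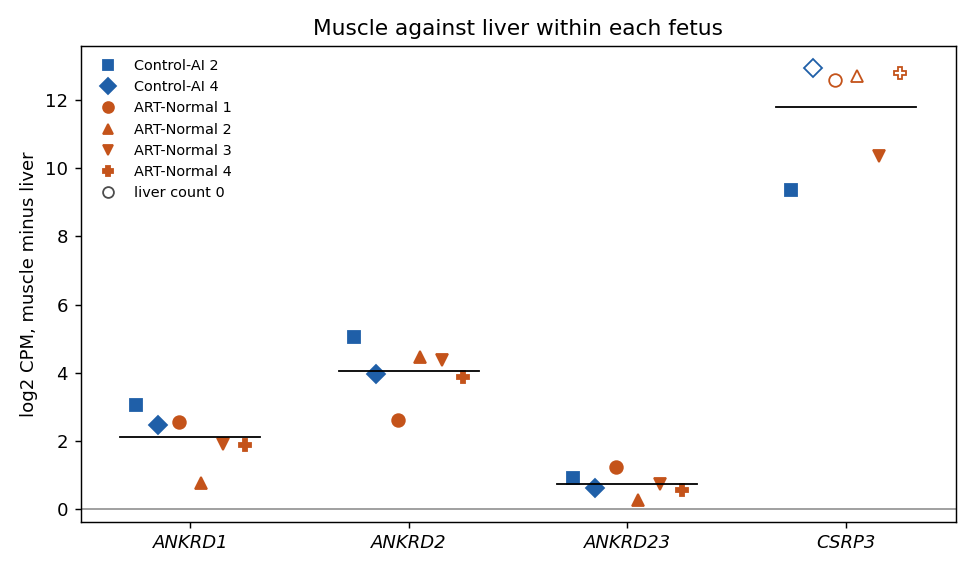
Log2 CPM of muscle minus liver within each fetus (y axis, joint TMM scale with a prior count of 1) for the 4 genes; each symbol is 1 fetus, open symbols have a liver count of 0, and the line is the mean over 6 fetuses. All differences lie above 0, from 0.26 for ANKRD23 in ART-Normal 2 to 9.36 or more for CSRP3 in every fetus.

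The surroundings of the members were described with 8 lists of genes. None of the 151 tested genes on them passed the quasi-likelihood test of edgeR in muscle (0 calls). An unadjusted p under 0.05 was found for 25 of them (16.6%), against 9.19% of all tested genes. The likelihood ratio test of edgeR called 2, CNN1 and ATF3, and 1.03% of all tested genes, and DESeq2 called CNN1 and 0.906% of all. The counts of genes below or above both controls in all ART-Normal muscles are to be read against 6.39% and 9.26% of all tested genes, whose median log2 fold change was 0.0007. Of 23 tested genes for titin and its binding partners, 2 (8.70%) lay below and 3 (13.0%) above both controls, near those shares, and their median was -0.06. TTN itself, which is named with MYPN, YBX1, TEAD1 and YAP1 outside the rule for named genes, had 5612 and 5972 CPM in the controls and 6062, 7035, 8107 and 6781 CPM in ART-Normal 1, 2, 3 and 4. All ART-Normal libraries were above both controls, yet the log2 fold change of TTN was 0.26 (SE 0.17) with an adjusted p of 0.704. MYPN, which encodes myopalladin, had a log2 fold change of 0.12 (SE 0.14) with an adjusted p of 0.851. The list genes with the largest differences were TRIM63, a ubiquitin ligase of the sarcomere, at 0.48 (SE 0.22), PALLD, the actin-binding palladin, at 0.40 (SE 0.16), and MYOM3, an M-band protein, at 0.39 (SE 0.23).

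Of 30 tested genes of the Z-disc and costamere, 5 (16.7%) lay below and 1 (3.33%) above both controls, against 6.39% and 9.26% of all genes, with a median of -0.07. XIRP2, an actin-binding protein of the Z-disc and intercalated disc, had 284 and 236 CPM in the controls and 143 to 233 CPM in ART-Normal. PDLIM3, an alpha-actinin-associated LIM protein, had 265 and 193 CPM in the controls and 137 to 192 CPM in ART-Normal. MYOZ2, a calcineurin-binding protein of the Z-disc, had 624 and 590 CPM in the controls and 334 to 553 CPM in ART-Normal. In each case the ranges did not overlap, although for XIRP2 and PDLIM3 the highest ART-Normal library was close to the lower control. Their log2 fold changes were -0.60 (SE 0.19), -0.58 (SE 0.18) and -0.54 (SE 0.19), with edgeR adjusted p-values of 0.385, 0.374 and 0.419.

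The other LIM proteins did not move in 1 direction. Of 13 tested, 1 (7.69%) lay below and 2 (15.4%) above both controls, near the shares of all genes, and the median was 0.02. LIMD1, a LIM protein of the Hippo pathway, had a log2 fold change of 0.60 (SE 0.18), and PDLIM1, an alpha-actinin-binding LIM protein, had -0.58 (SE 0.20). Their adjusted p-values in edgeR were 0.372 and 0.400.

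ANKRD1 is a widely used target of the YAP and TEAD transcription factors, which respond to stretch and cell density. Of 28 tested genes of this list, 2 (7.14%) lay below and 2 (7.14%) above both controls, near the shares of all genes, with a median of -0.005. The matricellular targets CTGF and CYR61 had the largest differences. CTGF had 30.2 and 52.9 CPM in the controls and 15.7 to 32.3 CPM in ART-Normal, and CYR61 had 35.7 and 77.6 CPM against 27.01 to 45.1 CPM. Both overlapped between the groups, with log2 fold changes of -0.75 (SE 0.28) and -0.67 (SE 0.28) and adjusted p-values of 0.462 and 0.509 in edgeR. STK3, a Hippo kinase, had 0.42 (SE 0.19), TEAD1 had 0.32 (SE 0.15) and YAP1 had -0.005 (SE 0.14).

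SRF and its MRTF cofactors drive actin and contractile genes when actin polymerizes. Of 16 tested genes of this list, 7 (43.8%) lay below and 1 (6.25%) above both controls, against 6.39% and 9.26% over all tested genes, and the median log2 fold change was -0.23. CNN1, the actin-binding calponin, had 31.8 and 36.6 CPM in the controls and 21.9, 19.4, 19.1 and 17.8 CPM in ART-Normal 1, 2, 3 and 4. The groups of CNN1 were well separated, at a log2 fold change of -0.82 (SE 0.15). It missed the threshold of the quasi-likelihood test with an adjusted p of 0.245 and passed with the likelihood ratio test of edgeR at 0.0025 and with DESeq2 at 0.0036. TGFB1I1, a focal adhesion LIM protein, had a log2 fold change of -0.50 (SE 0.16), and MKL1, the SRF cofactor MRTF-A, had 0.53 (SE 0.20). The summed markers of smooth muscle and pericytes, cells rich in CNN1, were 552 and 479 CPM in the control muscles and 403 to 472 CPM in ART-Normal, with 1 of the 6 markers below both controls and none at 0. Connective tissue markers summed to 26569 and 28429 CPM in the controls and 22103 to 25246 CPM in ART-Normal, and 4 of these 6 were below both controls. Tendon markers summed to 78.7 and 97.8 CPM in the controls and 61.7 to 104 CPM in ART-Normal, so that the groups overlapped. Summed markers of endothelium, erythroid cells, adipose tissue and macrophages in muscle also overlapped between the groups. The list for hepatic stellate cells, which shares DES and COL1A1 with muscle and connective tissue, summed to 9074 and 8545 CPM in the control muscles and 6107 to 8235 CPM in ART-Normal. The part of these cell types in the levels of ANKRD1, ANKRD2 and CNN1 was not tested.

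Of 13 tested immediate early genes, which respond within minutes to stress and growth signals, 4 (30.8%) lay below and 0 above both controls, against 6.39% and 9.26% of all genes, and the median was -0.28. ATF3, a stress-induced transcription factor, had 5.72 and 5.43 CPM in the controls and 1.32, 1.73, 1.22 and 3.87 CPM in ART-Normal 1, 2, 3 and 4. Its log2 fold change was -1.47 (SE 0.42). ATF3, like ANKRD1, met the filter only through the controls, so no p-value is given for it and nothing is read from its call above. It is 1 of the 4 genes below both controls here, and 1 of the 25 list genes with an unadjusted edgeR p under 0.05. NR4A1, at 3.07 CPM in ART-Normal 1, also met the filter only through the controls. The share of 30.8% and the median include these genes and are a description only. FOS and EGR1 overlapped widely, with 16.1 and 34.1 CPM in the controls against 6.92 to 27.7 CPM for FOS, and 18.6 and 29.2 CPM against 6.06 to 25.1 CPM for EGR1.

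Of 19 tested binding or regulatory partners of the ankyrin repeat proteins, 0 lay below and 2 (10.5%) above both controls, against 6.39% and 9.26% of all genes, with a median of 0.01. TGFB1, a growth-regulating cytokine, reached 26.8 CPM in Control-AI 2 but 11.8 CPM in the other control, against 9.06 to 12.9 CPM in ART-Normal, so its log2 fold change of -0.91 (SE 0.30) rested mainly on Control-AI 2. PRKCA, a protein kinase C, had 0.46 (SE 0.18), and CASQ1, a calcium store protein of the sarcoplasmic reticulum, had -0.44 (SE 0.20). YBX1, which partners ANKRD1 in the nucleus, had -0.03 (SE 0.16). Of 10 tested cardiac and fetal isoforms, 1 lay below and 0 above both controls, too few to set against those shares, with a median of -0.03. MYH6, the cardiac alpha myosin, had 41.1 and 19.0 CPM in the controls and 13.0 to 19.2 CPM in ART-Normal, with a log2 fold change of -0.98 (SE 0.28) and an adjusted p of 0.342 in edgeR. ACTC1 had -0.41 (SE 0.18) and MYL3 had -0.27 (SE 0.15). MYH6 and ACTC1 have close paralogs in muscle, and how shared reads were counted is not given in the sources used here.

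**Figure D4:**
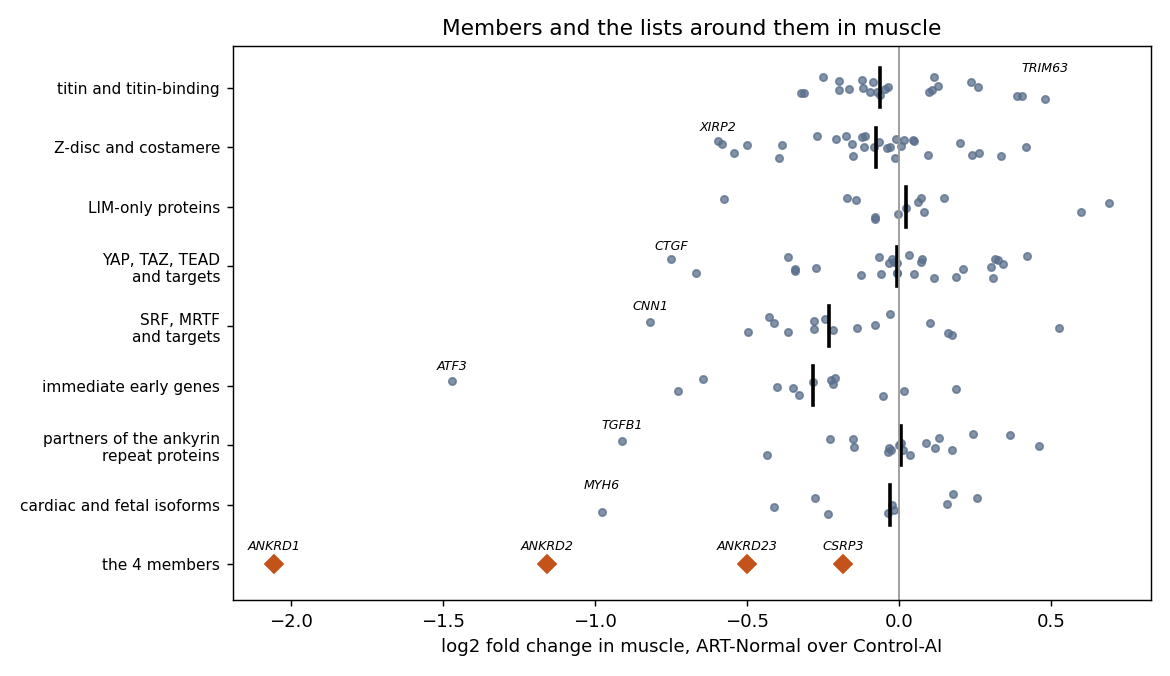
Log2 fold change in muscle with Control-AI as the reference (x axis) for every tested gene of the 8 lists (grey points, spread vertically for legibility; black line, list median) and for the 4 members (orange). ANKRD1 at -2.05, which was chosen for its low level in this contrast, lies left of every list gene, the closest being ATF3 at -1.47. List medians lie between -0.28 and 0.02.

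In the comparison of the tissues, the quasi-likelihood test of edgeR called 42.6% of 12449 tested genes higher in muscle. Of the sarcomere lists it called 19 of 23 genes for titin and its partners, 26 of 30 of the Z-disc and costamere and 10 of 10 cardiac and fetal isoforms, and 11 of 15 other LIM proteins. Of the regulatory lists it called 22 of 28 for YAP and TEAD, 13 of 16 for SRF and MRTF, 14 of 21 partners of the ankyrin repeat proteins and 7 of 13 immediate early genes. List genes expressed in muscle alone enter this fit through muscle only, and such genes had to differ, so these counts are a description.

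The 8 genes most like ANKRD1 in muscle, by Pearson correlation of log2 CPM over the 6 libraries, were MEST, SFR1, MEDAG, OTUD1, FEZ1, TNFRSF12A, ADPRHL1 and ECM1, with r from 0.97 to 0.98. A correlation above 0.9 with ANKRD1 was found for 72 of 11691 genes, or 0.616%. Without Control-AI 2 the 8 genes had r of 0.962 to 0.9995 over 5 libraries. These 5 libraries were part of the choice, and the remaining control lies far from ART-Normal in its ANKRD1 level. These values therefore do not test the likeness and are a description only. Since ANKRD1 divides the libraries into controls and ART-Normal, genes chosen by their correlation with it share that division. All 8 were lower in ART-Normal with no overlap.

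The largest differences among them were those of ECM1, an extracellular matrix protein, and TNFRSF12A, the receptor of the cytokine TWEAK. ECM1 had 18.8 and 14.1 CPM in the controls and 7.75, 7.09, 6.83 and 7.64 CPM in ART-Normal 1, 2, 3 and 4. TNFRSF12A had 20.3 and 18.2 CPM in the controls and 9.54, 7.75, 7.33 and 10.5 CPM in ART-Normal. Neither gene overlapped between the groups, at log2 fold changes of -1.17 (SE 0.20) and -1.14 (SE 0.20). MEST, a paternally expressed imprinted gene, had 891.7 and 874.5 CPM in the controls and 703, 674, 627 and 698 CPM in ART-Normal, a log2 fold change of -0.40 (SE 0.14). OTUD1, a deubiquitinase, had -0.83 (SE 0.17), and the DNA repair factor SFR1 had -0.63 (SE 0.14). ADPRHL1 had -0.53, FEZ1 -0.51 and MEDAG -0.51. The difference in ANKRD1 was larger than in any of them, which its choice for a low level in this contrast favours.

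**Figure D5:**
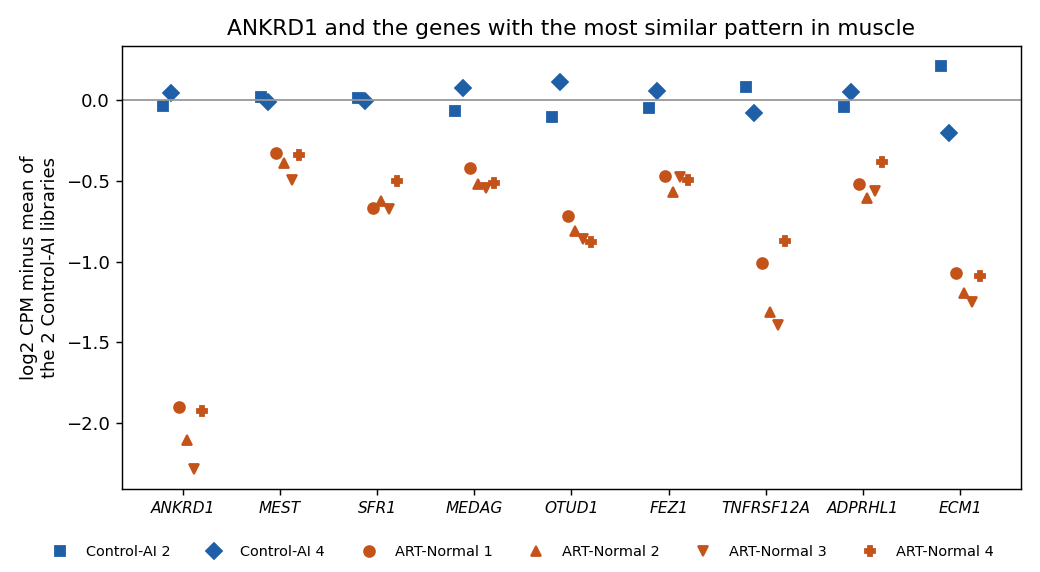
Log2 CPM in muscle minus the mean of the 2 Control-AI libraries (y axis) for ANKRD1 and the 8 genes most correlated with it; each symbol is 1 library. All ART-Normal libraries lie below both controls for every gene shown, and ANKRD1 lies lowest. The choice of ANKRD1 and of the other genes favours both.

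In liver, which did not enter this choice, 3 of the 8 genes passed the filter. There MEST had a log2 fold change between the groups of -0.63 (SE 0.21), ECM1 of -0.26 (SE 0.14) and SFR1 of -0.08 (SE 0.19). None passed the test, with edgeR adjusted p-values of 0.540, 0.590 and 0.891. Between tissues, MEST, SFR1, MEDAG, OTUD1, FEZ1, TNFRSF12A and ADPRHL1 were higher in muscle, at log2 fold changes from 1.01 for FEZ1 to 8.95 for MEDAG. ECM1 was higher in liver at -2.09 (adjusted p of 1.532e-06 in edgeR). All 8 were chosen among genes that passed the filter in muscle. MEDAG, OTUD1, FEZ1, TNFRSF12A and ADPRHL1 failed it in liver and entered this fit through muscle alone. Their direction was therefore largely set by the choice, and 42.6% of all tested genes were called higher in muscle.

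The genes most like the other members differed from those like ANKRD1. For ANKRD2 they were ZNF668, TMOD2, MPEG1 and CYGB, with r of 0.97 to 0.98, of which TMOD2 encodes a tropomodulin that caps actin filaments. For ANKRD23 they were USP30, NLGN2, RRAS and EFNA1, with r of 0.982 to 0.996, and each was highest in Control-AI 2, as ANKRD23 was. For CSRP3 they were EIF3H, SLC37A2, EIF2B1 and FAM151B, with r of 0.98 to 0.99, and each was highest in Control-AI 4 and lowest in ART-Normal 3. All were chosen by correlation over the same 6 libraries, so a shared highest or lowest library restates the choice and is a description only. A correlation above 0.9 was found for 31 genes with ANKRD2, 181 with ANKRD23 and 95 with CSRP3. These were 0.265%, 1.55% and 0.813% of 11691 genes.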

How the data were processed

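RNA-seq of skeletal muscle and liver was used from the 6 fetuses described above, and kidney was not analysed here. The authors deposited raw read counts per gene for each tissue, without normalization, on ARS-UCD1.2. Per the labels, mRNA was selected with oligo(dT), libraries were strand-specific and reads were paired-end. Their processing notes name FastQC 0.11.7, HISAT2 2.1.0, Cufflinks, SAMtools, featureCounts and edgeR 3.24.3. The strand setting of the counting and the treatment of reads with several positions are not given in the sources used here. Each listed length equals the whole gene span, so introns were counted. Of 13 count columns per tissue, 7 matched no sample label, and these 14 columns were not used. Separate tables of the authors' comparisons, with fold changes, p-values and FDR, were not used either. Total counts are given with the results, and intervals and floors cover counting error only.

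Here, edgeR 4.0.16 (R 4.3.3) gave TMM-scaled CPM, log2 fold changes, their standard errors and quasi-likelihood p-values, which are two-sided. A gene was tested if every library of a group reached 5 CPM, p-values were adjusted by Benjamini-Hochberg over all tested genes, and the threshold was 0.05. The 4 ART-Normal and 2 Control-AI libraries were compared within each tissue without covariates, and muscle with liver in 1 fit with the fetus as a block, whose p-values for the members are given without the filter. Liver and muscle of the same fetus are paired: over 10076 genes, the distances of both from their group means had correlations of 0.69 for the controls, a single value since 2 libraries mirror each other around their mean, compared with 0.44, 0.08, 0.09 and 0.56 for ART-Normal 1, 2, 3 and 4. Within a group each library is a separate fetus. No exact test of 4 against 2 libraries can give a p below 0.0667. Alternatives were RLE normalization, library size alone, the likelihood ratio test, the Wald test in DESeq2 1.42.0, dropping the filter, a minimum of 10 counts per library, ART-Normal 1 to 3 only, a replicate block, and each library left out. Using ART-Normal 1 to 3 only is the same as leaving out ART-Normal 4. Plots used Python 3.11.15 and Matplotlib 3.10.9. The procedures were tested on simulated data.

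The 4 genes, the 8 lists and the markers were chosen with earlier results of these data known. Named genes are the 4 members, the 3 genes of each list with the largest absolute log2 fold change in muscle, the 8 genes most correlated with ANKRD1 and the 4 most correlated with each other member. Of the genes this rule names, 1 is not reported here.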

Additional observations from a re-analysis of the deposited data

Results flagged for a closer look

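CSRP3 in the liver of ART-Normal 3 stood apart from the other 3 ART-Normal livers, at 0.116 CPM from 3 counts, where the others were at 0. Of the 8 sets of 4 ART-Normal values examined in this way, 4 genes in each tissue, no other held a library so far from the rest. Chance alone marks about 1 in 20 sets of continuous values, a rate that does not apply here: with 3 values at 0, any count in the fourth library would stand apart in this way. The 3 counts are at the limit that a count of 0 allows.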

How the results depend on the processing

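Of 189 alternative values for 15 results, 166 were labelled unchanged, 20 moved and 3 reversed, and the cause was not tested. For counts of genes or members, unchanged meant within a set fold of the main count. For levels it meant the same direction within a set range. For ANKRD2, ANKRD23 and CSRP3 between tissues it meant the same direction and the same side of the threshold. The fit with ART-Normal 1 to 3 only is the one without ART-Normal 4, and its values are counted under both names. ANKRD1 in muscle stayed between -2.10 and -1.99 on the log2 scale and ANKRD2 between -1.39 and -0.88 under every alternative run. ANKRD23 in muscle ranged from -0.89 without Control-AI 4 to 0.0081 without Control-AI 2, and CSRP3 from -0.35 without Control-AI 2 to 0.0044 without Control-AI 4. In liver, the log2 ratio of ANKRD2 ranged from -1.24 without Control-AI 2 to 0.46 without Control-AI 4, and that of ANKRD23 from -0.64 without Control-AI 4 to -0.058 without Control-AI 2. The number of genes called in muscle was 1, against 120 with the likelihood ratio test, 106 with DESeq2, 0 with ART-Normal 1 to 3 only and 90 with the replicate block. Leaving out 1 library gave 0 to 1327 calls, the highest without Control-AI 4, and 5 without Control-AI 2. Where 1 control is left, it is assumed to vary like the ART-Normal libraries. In liver the number was 0, against 8 with library size alone, 89 with the likelihood ratio test, 56 with DESeq2, 2 with ART-Normal 1 to 3 only, 6 with the replicate block, and 0 to 830 with 1 library left out, the highest without Control-AI 4. Library size alone moved the median log2 fold change of all liver genes to 0.21. The replicate numbers 2 and 4 occur in both groups but belong to different fetuses, whose deviations correlated at -0.03 and -0.19 in muscle and 0.02 and -0.13 in liver, so the block pairs numbers only. With the block, ANKRD1 was at -2.02 in muscle. In the comparison of tissues, no result changed its direction or its side of the threshold under the alternatives run, including the fit with no replicate block, where ANKRD23 had 0.74 on the log2 scale. Depth limits the liver values: ANKRD1 and ANKRD2 had 12 to 116 counts there, and CSRP3 5 or fewer.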
